A study of Mus musculus with 36 samples.

Results

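The comparison described here asks which transcripts of mouse astrocyte cultures responded to dexamethasone differently at 18 and 24 h than at 4 and 6 h. It is a difference of differences: the mean of dexamethasone minus vehicle at 18 and 24 h (the late response), minus the mean of dexamethasone minus vehicle at 4 and 6 h (the early response), computed for each of 18306 genes. It used 18 of the 36 arrays of the series, chosen by treatment time. These were dexamethasone cultures of 4 h (3 arrays), 6 h (2), 18 h (2) and 24 h (2), and vehicle cultures of 4 h (3), 6 h (2), 18 h (2) and 24 h (2). Arrays of other times were left out, some of them because their cell mixture was held to differ, which was not examined here. All cultures were primary astrocytes of newborn C57B/6 pups (P0-P2), labelled as cortical although the growth protocol names cortex or hippocampus, and were kept in medium with serum until about confluent. Dexamethasone, a synthetic glucocorticoid, was given at about 100 nM, and the sources used here do not say what the vehicle was. Total RNA was labelled as biotinylated cRNA and hybridized to Illumina arrays. Whether the arrays of a group came from separate cultures is not stated, so p-values reflect the spread among these arrays alone, which may be technical.

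Glucocorticoids cross the cell membrane and bind the glucocorticoid receptor, the product of Nr3c1, which chaperones hold in the cytoplasm. The bound receptor enters the nucleus, raises transcription at DNA elements it binds directly and lowers that of many inflammatory genes. Some target genes encode transcription factors, clock proteins and signalling inhibitors, so a direct response can be followed by others, and astrocytes are among the brain cells with abundant receptor.

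Levels are log2 intensities, in which 1 unit is a doubling, and 5.83 is the level above which a probe was counted as above background. Positive differences mean a higher value with dexamethasone, and a positive late-minus-early difference means that the late response was higher. A gene is called at a limma adjusted p under 0.05 (Benjamini-Hochberg over all 18306 genes). Replicate arrays correlated at 0.9798 to 0.9968, with the widest spread in the dexamethasone groups of 24 h and 4 h. The number of arrays limits the precision. Astrocyte markers were plentiful: 22 of 24 lay above background on all 18 arrays, S100b on 5 and Gjb6 on 15. Markers of other cell types were detected too, with 16 of 18 tested microglial markers (Ptprc on 2 arrays only), 7 of 12 of the oligodendrocyte lineage, 6 of 8 of neurons, 9 of 9 of fibroblasts and meninges, 5 of 5 of ependyma and 1 of 9 of endothelium above background on every array. In bulk RNA, fewer cells of a type and less RNA per cell cannot be told apart. The titles of the vehicle arrays of 4 h and 6 h carry a suffix that the vehicle arrays of 18 h and 24 h and all dexamethasone arrays lack. The sources used here do not give its meaning, and whatever it marks cannot be told apart from the early vehicle groups.

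The response of 1037 genes (5.66% of those tested) differed between the late and the early times. The late response was higher in 405 genes (2.21%) and lower in 632 (3.45%), and the median difference over all genes was 0.00745. At the early times 1747 genes (9.54%) responded, of which 841 (4.59%) were higher and 906 (4.95%) lower with dexamethasone than with vehicle. At the late times 3002 (16.4%) responded, of which 1339 (7.31%) were higher and 1663 (9.08%) lower. Of the genes that rose early, 522 also rose late, which is 39% of the late risers and 62.1% of the early risers. Of those that fell early, 358 also fell late, 21.5% of the late and 39.5% of the early list. The counts of late minus early calls were 121 higher and 326 lower with 18 h alone as the late time, and 119 and 331 when the spread was estimated from all 36 arrays. The fit to all 36 arrays takes in the times left out above, whose cell mixture was in part held to differ. The late and early responses use different arrays, but each gene's spread was estimated over all 18 arrays together.

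Sorted by which response was the larger and by its sign, the 1037 genes fall into 4 classes. The late fall, in which the late response was the larger and negative, was the most numerous with 503 genes (48.5% of those called). Its median late response was -1.03 and its median early response -0.0338. The late rise held 262 genes (25.3%), with medians of 0.843 late and 0.0729 early. The early fall held 143 genes (13.8%), with medians of 0.0795 late and -0.711 early, and the early rise 129 genes (12.4%), with medians of 0.0866 late and 1.05 early. The same contrast that made the call sorted the genes, so these medians describe the classes and test nothing. A difference over 1 log2 unit was reached by 234 genes of the late fall, 58 of the late rise, 38 of the early rise and 26 of the early fall.

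**Figure D1:**
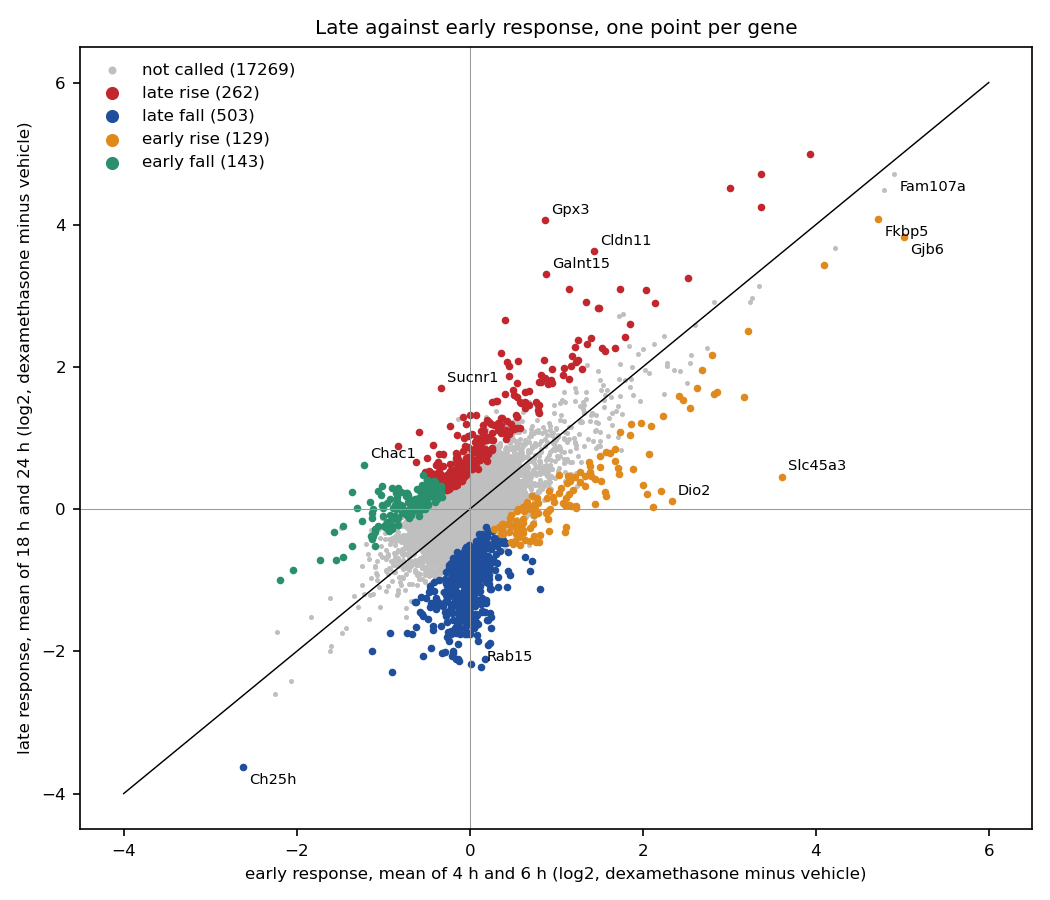
Each point is 1 of 18306 genes, with the early response (mean of 4 and 6 h, log2, dexamethasone minus vehicle) on the x axis and the late response (mean of 18 and 24 h) on the y axis; colours mark the 4 classes, grey points were not called, and the diagonal line marks equal responses. Gpx3 lies far above the diagonal, Slc45a3 far below it at a late response near 0, and Fam107a close to it at the upper right.

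Gpx3, which encodes the secreted glutathione peroxidase, had the largest difference of the late rise. Gpx3 read 9.85, 9.97 and 9.07 at 4 h and 10.23 and 10.21 at 6 h in dexamethasone cultures, against 8.96, 9.18 and 9.05 at 4 h and 9.12 and 8.98 at 6 h in vehicle cultures. Late Gpx3 values were 11.62 and 11.56 at 18 h and 11.54 and 12.45 at 24 h with dexamethasone, against 7.86 and 7.66 at 18 h and 7.86 and 7.53 at 24 h with vehicle. The treatments overlapped at 4 h, and at 6, 18 and 24 h every dexamethasone array lay above every vehicle array, with a late gap of more than 3 log2 units. The response was 16.7-fold late and 1.83-fold early, a difference of 3.20 (SE 0.26, 95% interval 2.65 to 3.74, adjusted p = 1.3e-06). Both treatments contributed: the late mean minus the early mean was 1.87 in dexamethasone cultures and -1.33 in vehicle cultures.

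Cldn11, a claudin of tight junctions and of the myelin of oligodendrocytes, was higher in treated cultures at every time, and more so late. In dexamethasone cultures Cldn11 stood at 8.67, 9.00 and 8.89 at 4 h and at 9.60 and 9.59 at 6 h, against 7.68, 7.99 and 7.71 and then 7.88 and 7.69 in vehicle cultures of the same times. By 18 h Cldn11 stood at 11.59 and 11.54 with dexamethasone, against 8.57 and 7.85 with vehicle, and by 24 h at 11.88 and 12.31, against 8.03 and 8.37. Dexamethasone arrays were higher at every time, by 1.07 at 4 h, 1.81 at 6 h, 3.36 at 18 h and 3.90 at 24 h, and the late-minus-early difference was 2.19 (SE 0.21, 95% interval 1.75 to 2.62, adjusted p = 4.4e-06). Cldn11 also stands in the list of oligodendrocyte lineage markers, in which it was the 1 called gene of 12. With Cldn11 included, that list averaged 8.30 to 8.48 on late and 7.76 to 7.93 on early dexamethasone arrays. On vehicle arrays it averaged 7.86 to 8.16 late and 7.58 to 7.87 early. Because Cldn11 is 1 of the 12, these averages hold its own change and cannot show whether the lineage moved with it. The median late-minus-early difference of the 12 was 0.0754. The part of the lineage in the Cldn11 result was not tested.

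Galnt15 (listed as Galntl2), an enzyme of the family that starts O-linked glycosylation, had a late response of 3.31 and an early response of 0.89, a difference of 2.42 (SE 0.16, 95% interval 2.09 to 2.75, adjusted p = 3e-07). A second probe for it gave 2.50, and 2 dimmer probes gave 0.35 and 0.72. Sucnr1, the receptor for extracellular succinate, had a late response of 1.70 and an early response of -0.34 (adjusted p = 0.071), a difference of 2.03 (SE 0.17, 95% interval 1.68 to 2.38, adjusted p = 1.3e-06). Sucnr1 read 9.17, 9.17 and 9.40 at 4 h and 9.32 and 9.34 at 6 h in dexamethasone cultures, against 9.36, 9.71 and 9.67 at 4 h and 9.61 and 9.73 at 6 h in vehicle cultures. Late Sucnr1 values were 10.42 and 10.67 at 18 h and 10.61 and 10.63 at 24 h with dexamethasone, against 8.59 and 9.06 at 18 h and 8.95 and 8.94 at 24 h with vehicle. Dexamethasone arrays lay below the vehicle arrays at 6 h and above them at 18 and 24 h, with overlap at 4 h. The unnamed transcripts G630052O08Rik (2.25, SE 0.17) and LOC100047583 (1.83, SE 0.25) also had some of the largest differences of the class.

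Other genes that had risen early had a larger response late. Sult1a1, which adds sulfate to phenols and steroids, was 22.8-fold higher late and 8.02-fold higher early (difference 1.51, SE 0.14, 95% interval 1.21 to 1.81, adjusted p = 4.4e-06). Folh1, the peptidase that frees glutamate from N-acetylaspartylglutamate, had a late response of 4.71 and an early response of 3.37 as fitted, a difference of 1.34 (SE 0.21, 95% interval 0.89 to 1.79, adjusted p = 0.00067). Its vehicle arrays of 4 h and 6 h were below background, so the early response has only a bound. With such values raised to background, Folh1 was at least 7.17-fold higher early, so that the difference was at most 1.87. Hspb1, the small heat shock protein of stressed and reactive astrocytes, had a late response of 3.10 and an early response of 1.74 (difference 1.36, SE 0.21, 95% interval 0.92 to 1.80, adjusted p = 0.00047). For Hspb1 the late mean minus the early mean was -0.18 with dexamethasone and -1.54 with vehicle.

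**Figure D2:**
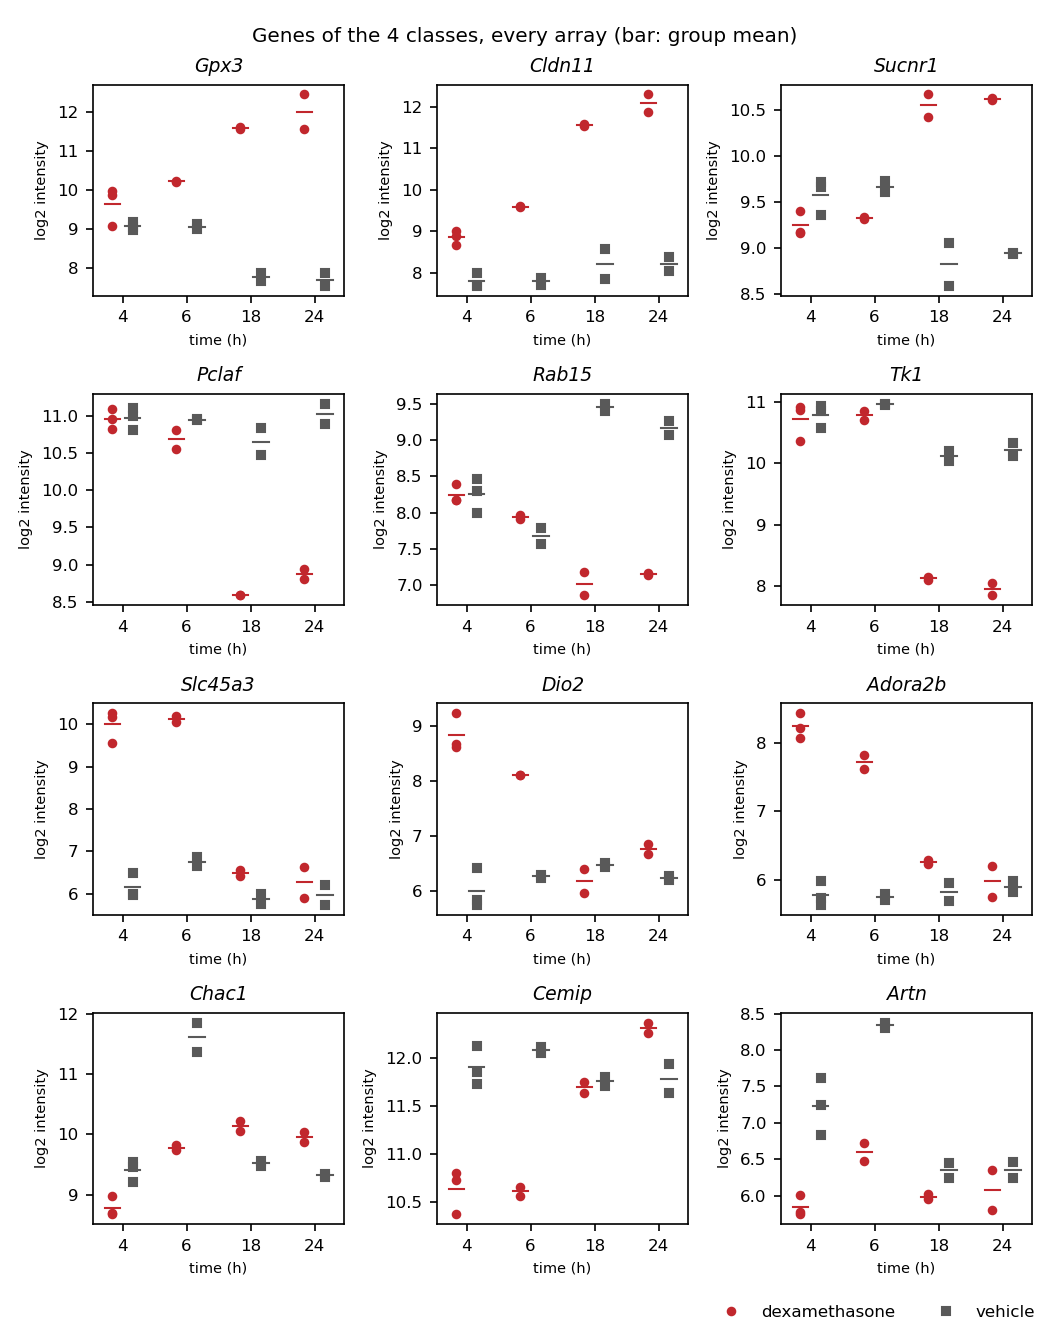
Log2 intensity (y axis) of 12 genes on every array at 4, 6, 18 and 24 h (x axis, evenly spaced), dexamethasone as red circles and vehicle as grey squares, with a bar at each group mean. In the top row (late rise) the treatments lie farthest apart at 18 and 24 h with dexamethasone above; in the second row (late fall) they part at the same times with dexamethasone below; in the third row (early rise) they lie apart at 4 and 6 h; and in the bottom row (early fall) dexamethasone lies below at 4 and 6 h.

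The late fall was led by genes of DNA synthesis and by a few genes of other roles. Pclaf (listed as 2810417H13Rik) encodes a partner of the replication clamp PCNA. In dexamethasone cultures Pclaf stood at 10.96, 11.09 and 10.83 at 4 h and at 10.81 and 10.56 at 6 h, against 10.81, 11.11 and 11.01 and then 10.94 and 10.96 in vehicle cultures of the same times. By 18 h Pclaf stood at 8.59 and 8.58 with dexamethasone, against 10.47 and 10.84 with vehicle, and by 24 h at 8.81 and 8.95, against 10.90 and 11.17. At 4 h the treatments overlapped, at 6 h they differed by -0.26, and at 18 and 24 h every dexamethasone array was lower by more than 1.5 log2 units than any vehicle array. The difference was -1.97 (SE 0.16, 95% interval -2.31 to -1.63, adjusted p = 1.3e-06), and it lay on the dexamethasone side, where the late mean minus the early mean was -2.09, against -0.12 in vehicle cultures. Tk1, the thymidine kinase of dividing cells, had the same order of arrays. Tk1 read 10.86, 10.92 and 10.37 at 4 h and 10.86 and 10.71 at 6 h in dexamethasone cultures, against 10.57, 10.93 and 10.86 at 4 h and 10.95 and 10.97 at 6 h in vehicle cultures. Late Tk1 values were 8.16 and 8.11 at 18 h and 7.85 and 8.05 at 24 h with dexamethasone, against 10.21 and 10.03 at 18 h and 10.12 and 10.33 at 24 h with vehicle. Its difference was -2.01 (SE 0.18, 95% interval -2.38 to -1.64, adjusted p = 2.6e-06), or -0.73 on a dimmer second probe.

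Cyclin E2 (Ccne2), which drives entry into DNA synthesis, had a difference of -2.19 (SE 0.24, 95% interval -2.71 to -1.68, adjusted p = 2.2e-05). The replication-dependent histone genes H2ac12 (listed as Hist1h2ah, -2.12, adjusted p = 0.00042) and H2ac15 (listed as Hist1h2ak, -2.12, adjusted p = 0.00056) are near-identical copies whose probes may share transcripts. Both stood far lower at 6 h than at 4 h in both treatments. The H2ac12 means in dexamethasone cultures were 12.02 at 4 h, 9.15 at 6 h, 10.97 at 18 h and 9.74 at 24 h, against 11.87, 8.83, 12.54 and 11.94 in vehicle cultures. For H2ac12, which treatment moved thus depends on the early time: at both late times vehicle cultures were above their 4 h and 6 h levels, while dexamethasone cultures were below their 4 h level and above their 6 h level. The calls of Ccne2, H2ac12 and H2ac15 ended when all 36 arrays were fitted. Rab15, a small GTPase of endosome recycling, had the largest difference of the class. In dexamethasone cultures Rab15 stood at 8.18, 8.17 and 8.39 at 4 h and at 7.97 and 7.92 at 6 h, against 8.30, 8.46 and 8.0 and then 7.80 and 7.57 in vehicle cultures of the same times. By 18 h Rab15 stood at 7.18 and 6.86 with dexamethasone, against 9.40 and 9.50 with vehicle, and by 24 h at 7.17 and 7.14, against 9.26 and 9.07. Dexamethasone arrays were below vehicle arrays at 18 and 24 h only, and above them at 6 h, and the difference was -2.35 (SE 0.16, 95% interval -2.69 to -2.0, adjusted p = 4.9e-07). Ccno, a cyclin needed to make the basal bodies of multiciliated cells, had a difference of -2.28 (SE 0.29, 95% interval -2.88 to -1.68, adjusted p = 7.6e-05) and heads the ependymal list described further on.

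Of 28 tested genes of DNA replication, 24 had a lower late response and 4 did not pass, with a median difference of -1.45, where 3.45% of all tested genes were lower and the median of all was 0.00745. All 28 were lower with dexamethasone late, against 3 early, where 9.08% of all tested genes were lower late and 4.95% early. Besides Tk1, the largest differences were those of Mcm10 (-1.95, SE 0.21), a helicase loading factor, the chromatin assembly subunit Chaf1b (-1.81, SE 0.27), the helicase subunits Mcm5 (-1.72, SE 0.19) and Mcm2 (-1.59, SE 0.19), the helicase activator Cdc45 (-1.71, SE 0.19) and the licensing factor Cdt1 (-1.61, SE 0.16). Ribonucleotide reductase (Rrm2, -1.55) and thymidylate synthase (Tyms, -1.54), which supply nucleotides, belong to the same 24. Mcm3, another helicase subunit, was among the 3 that fell early as well. Mcm3 read 7.23, 7.80 and 8.19 at 4 h and 7.46 and 7.07 at 6 h in dexamethasone cultures, against 8.22, 8.53 and 8.87 at 4 h and 8.13 and 8.39 at 6 h in vehicle cultures. Late Mcm3 values were 6.18 and 6.66 at 18 h and 6.01 and 5.67 at 24 h with dexamethasone, against 8.60 and 8.52 at 18 h and 8.47 and 8.11 at 24 h with vehicle. The treatments did not overlap at any time, and the difference was -1.40 (SE 0.26, 95% interval -1.95 to -0.84, adjusted p = 0.0027), a call that ended with 18 h alone as the late time.

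Of 24 tested genes of mitosis, 23 had a lower late response and 1 did not pass, with a median difference of -1.30. Over all tested genes, 3.45% were lower. With the late response taken from 18 h alone, 14 were called and the median was -0.913, where 326 of all 18306 tested genes were lower. The early response of these genes had a median of 0.0178. In dexamethasone cultures Cdk1 stood at 12.27, 12.38 and 11.92 at 4 h and at 12.22 and 12.13 at 6 h, against 12.20, 12.23 and 12.18 and then 12.13 and 12.26 in vehicle cultures of the same times. By 18 h Cdk1 stood at 11.19 and 11.17 with dexamethasone, against 12.25 and 12.22 with vehicle, and by 24 h at 10.36 and 10.20, against 12.18 and 12.31. Cdk1 (listed as Cdc2a), the kinase that starts mitosis, thus had single-time responses of -1.05 at 18 h and -1.97 at 24 h, with no overlap, and a difference of -1.49 (SE 0.15, 95% interval -1.80 to -1.18, adjusted p = 6.4e-06). Its 2 dim probes gave -0.56 and -0.17. Topoisomerase Top2a (-1.73, SE 0.16), the chromosome passenger kinase Aurkb (-1.72, SE 0.15), the proliferation marker Mki67 (-1.42, SE 0.20) and cyclin B1 (Ccnb1, -1.36, SE 0.14) were among the others. Polo-like kinase Plk1 (-1.29, SE 0.33) had an adjusted p of 0.026 and lost its call under 13 of 32 alternatives. For Kif23 and Ndc80, another probe had the opposite sign (0.07 and 0.27) and was not called.

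Of 21 tested G1 cyclins, kinases and inhibitors, 5 had a lower late response and 1 a higher one, with a median of -0.402, where 3.45% of all tested genes were lower and 2.21% higher. The lower ones were Ccne2, the pocket protein gene Rbl1 (-1.13 on its brightest probe), the transcription factor E2f1 (-0.90, SE 0.16, adjusted p = 0.0021), Cdk2 (-0.70) and the inhibitor Cdkn1a (-0.67). The inhibitor Cdkn2b (0.60) was the higher one. Its call ended under 12 of 32 alternatives. Rbl1 has 2 dimmer probes, which gave -0.28 and 0.10, and its call ended with the mean over probes.

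Promoter sequences of 4 of these genes are shown because the letters bound by the factors that time replication and mitosis genes can be read in them. The windows run from 250 bases before to 50 after the RefSeq start (build GRCm38.p6) and are written 5′ to 3′ on the gene's strand. Pclaf lies at chr9:65890073-65890372, plus strand, and Mcm3 at chr1:20820263-20820562, minus strand. In both, capitals mark the E2F letters TTTCCCGC or TTTGGCGC on either strand.
Pclaf: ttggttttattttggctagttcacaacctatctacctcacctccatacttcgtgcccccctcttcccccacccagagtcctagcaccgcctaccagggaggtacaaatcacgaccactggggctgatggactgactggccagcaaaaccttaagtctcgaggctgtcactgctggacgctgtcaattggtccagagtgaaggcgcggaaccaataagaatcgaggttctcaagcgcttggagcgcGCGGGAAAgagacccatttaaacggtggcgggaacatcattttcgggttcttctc
Mcm3: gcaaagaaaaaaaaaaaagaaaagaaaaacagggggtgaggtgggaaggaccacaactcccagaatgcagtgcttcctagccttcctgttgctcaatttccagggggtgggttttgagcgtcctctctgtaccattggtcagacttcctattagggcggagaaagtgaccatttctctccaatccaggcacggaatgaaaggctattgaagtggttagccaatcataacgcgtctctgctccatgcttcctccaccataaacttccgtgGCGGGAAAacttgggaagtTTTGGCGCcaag

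Plk1 lies at chr7:122159185-122159484, plus strand, and Cdk1 at chr10:69352863-69353162, minus strand. Here capitals mark TTTGAA, the letters of the cell cycle homology region (CHR), searched on both strands.
Plk1: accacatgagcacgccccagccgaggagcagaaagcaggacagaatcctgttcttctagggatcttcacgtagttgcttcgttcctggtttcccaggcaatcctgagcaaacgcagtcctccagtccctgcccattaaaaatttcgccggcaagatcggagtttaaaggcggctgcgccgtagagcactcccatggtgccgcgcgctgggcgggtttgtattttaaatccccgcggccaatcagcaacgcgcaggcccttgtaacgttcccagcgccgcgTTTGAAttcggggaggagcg
Cdk1: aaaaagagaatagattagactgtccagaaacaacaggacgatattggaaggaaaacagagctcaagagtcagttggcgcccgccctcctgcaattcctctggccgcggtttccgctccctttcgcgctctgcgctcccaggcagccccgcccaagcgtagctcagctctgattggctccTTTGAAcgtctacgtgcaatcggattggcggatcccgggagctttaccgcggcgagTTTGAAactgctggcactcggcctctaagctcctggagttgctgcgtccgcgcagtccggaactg

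The E2F letters were found in the windows of 7 of the 23 replication genes with a RefSeq promoter (30.4%), of 9.39% of late fall genes with one, of 2.98% of all tested genes and of 1.80% of all 27025 genes. Of the 21 mitosis genes with a promoter, 17 held TTTGAA (81.0%), against 28.2% of late fall genes, 14.7% of all tested genes and 20.2% of all genes. The letters CCAAT stood in 76.2% of mitosis genes, 60.9% of replication genes, 54.4% of late fall genes, 42.6% of all tested genes and 41.1% of all genes. Over single windows of 300 bases, of which there are 32851, the shares were 1.56% for E2F, 17.9% for TTTGAA and 37.4% for CCAAT. No match printed in capitals shares a base with a match of another motif searched. A match is a description of the letters, not of a bound site.

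Genes of the early rise had their larger, positive response at 4 and 6 h. Slc45a3, of a family of sugar transporters, had the largest difference. Slc45a3 read 10.27, 10.18 and 9.56 at 4 h and 10.19 and 10.06 at 6 h in dexamethasone cultures, against 6.00, 6.48 and 5.97 at 4 h and 6.86 and 6.66 at 6 h in vehicle cultures. Late Slc45a3 values were 6.43 and 6.57 at 18 h and 5.91 and 6.63 at 24 h with dexamethasone, against 5.77 and 6.00 at 18 h and 5.74 and 6.20 at 24 h with vehicle. Every dexamethasone array of 4 h and 6 h lay more than 2 log2 units above any vehicle array, the gap was under 1 unit at 18 h and the treatments overlapped at 24 h. The response was 1.37-fold late (adjusted p = 0.11) and 12.2-fold early, a difference of -3.15 (SE 0.25, 95% interval -3.67 to -2.63, adjusted p = 1.2e-06).

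Dio2, the deiodinase with which astrocytes make active thyroid hormone for neurons, had no call left late. In dexamethasone cultures Dio2 stood at 9.23, 8.60 and 8.67 at 4 h and at 8.10 and 8.10 at 6 h, against 6.42, 5.74 and 5.84 and then 6.29 and 6.23 in vehicle cultures of the same times. By 18 h Dio2 stood at 6.39 and 5.96 with dexamethasone, against 6.42 and 6.51 with vehicle, and by 24 h at 6.84 and 6.66, against 6.27 and 6.19. At 18 h the dexamethasone arrays were below the vehicle arrays and at 24 h above them, and the late response was 0.12 against 2.34 early (difference -2.22, SE 0.22, 95% interval -2.67 to -1.76, adjusted p = 6e-06). Adora2b, the low-affinity adenosine receptor coupled to cyclic AMP, had a late response of 0.26 and an early response of 2.21. Adora2b read 8.07, 8.43 and 8.22 at 4 h and 7.82 and 7.61 at 6 h in dexamethasone cultures, against 5.73, 5.97 and 5.63 at 4 h and 5.79 and 5.71 at 6 h in vehicle cultures. Late Adora2b values were 6.23 and 6.29 at 18 h and 5.75 and 6.20 at 24 h with dexamethasone, against 5.95 and 5.69 at 18 h and 5.98 and 5.82 at 24 h with vehicle. The vehicle arrays of 6 h were not above background, and with such values raised to background the difference was -1.88, against -1.96 (SE 0.17, 95% interval -2.32 to -1.59, adjusted p = 2.6e-06) as fitted.

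Pmaip1, the cell death protein Noxa (difference -2.08, SE 0.27, 95% interval -2.64 to -1.52, adjusted p = 9.3e-05), and Wipf3, a partner of actin nucleation factors (difference -1.84, SE 0.26, 95% interval -2.40 to -1.29, adjusted p = 0.00025), had late responses of 0.04 and 0.21. For Wipf3 the dexamethasone arrays of 24 h and the vehicle arrays of 18 h and 24 h were below background. In Pex11a, which acts in peroxisome division, the gap closed on the vehicle side. In dexamethasone cultures Pex11a stood at 11.23, 11.18 and 11.61 at 4 h and at 10.89 and 10.97 at 6 h, against 9.17, 9.42 and 9.11 and then 9.14 and 8.93 in vehicle cultures of the same times. By 18 h Pex11a stood at 10.93 and 10.94 with dexamethasone, against 10.56 and 10.59 with vehicle, and by 24 h at 10.76 and 10.31, against 10.45 and 9.96. Dexamethasone arrays stayed between 10.31 and 11.61 throughout, while vehicle arrays stood at 9.96 to 10.59 late and at 8.93 to 9.42 early, and the difference was -1.66 (SE 0.19, 95% interval -2.05 to -1.26, adjusted p = 2.6e-05). Map3k6, a kinase of stress signalling, kept part of its response, with 1.58 late and 3.17 early (difference -1.59, SE 0.19, 95% interval -1.99 to -1.19, adjusted p = 4.7e-05).

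Among 30 classic receptor targets, 7 had a lower late response, 3 a higher one and 20 did not pass, with a median difference of -0.236. Over all tested genes, 3.45% were lower and 2.21% higher. Of the same 30, 24 were higher late and 27 early, against 7.31% and 4.59% of all tested genes, and 1 was lower late. The list was chosen with earlier results of these data known, so these counts describe it and test nothing. Errfi1, which restrains signalling by the EGF receptor, and Gjb6, connexin 30 of astrocyte gap junctions, had the largest of the lower ones. Errfi1 read 12.66, 12.79 and 12.60 at 4 h and 13.04 and 12.99 at 6 h in dexamethasone cultures, against 9.51, 9.82 and 10.06 at 4 h and 10.13 and 10.36 at 6 h in vehicle cultures. Late Errfi1 values were 11.16 and 11.05 at 18 h and 11.01 and 11.44 at 24 h with dexamethasone, against 9.49 and 9.57 at 18 h and 9.66 and 9.49 at 24 h with vehicle. Errfi1 was 3.06-fold higher late and 7.09-fold higher early, a difference of -1.21 (SE 0.17, 95% interval -1.58 to -0.84, adjusted p = 0.00028). In dexamethasone cultures Gjb6 stood at 10.85, 10.46 and 11.06 at 4 h and at 10.68 and 10.87 at 6 h, against 5.90, 5.70 and 5.81 and then 5.62 and 5.84 in vehicle cultures of the same times. By 18 h Gjb6 stood at 10.13 and 9.96 with dexamethasone, against 5.96 and 6.00 with vehicle, and by 24 h at 9.77 and 9.62, against 6.07 and 6.16. At every time the lowest dexamethasone array of Gjb6 lay more than 3 log2 units above the highest vehicle array, and the mean gap was 3.83 late and 5.01 early (difference -1.19, SE 0.17, 95% interval -1.54 to -0.83, adjusted p = 0.00024). Its vehicle arrays of 4 and 6 h were mostly not above background.

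Transglutaminase Tgm2 changed sign, with a late response of -0.37 and an early response of 0.74 (difference -1.11, SE 0.15, 95% interval -1.43 to -0.80, adjusted p = 0.00012). Ddit4 (-0.78), Cdkn1a (-0.67), the lipid droplet coat Plin4 (listed as S3-12, -0.66) and Fkbp5 (-0.64) had lower late responses as well, and the calls of Ddit4 and Plin4 ended under 11 and 6 of 32 alternatives. Fkbp5 read 12.21, 12.15 and 11.98 at 4 h and 12.20 and 12.28 at 6 h in dexamethasone cultures, against 7.33, 7.66 and 7.49 at 4 h and 7.63 and 7.21 at 6 h in vehicle cultures. Late Fkbp5 values were 11.11 and 11.07 at 18 h and 11.02 and 11.36 at 24 h with dexamethasone, against 7.14 and 6.76 at 18 h and 7.22 and 7.13 at 24 h with vehicle. Fkbp5, a co-chaperone that dampens the receptor, thus stayed 16.9-fold higher late, against 26.3-fold early, and its difference (adjusted p = 0.035) lost its call under 19 of 32 alternatives. Sgk1, a kinase that controls ion transport, was among the 3 higher ones (difference 0.73, SE 0.18, 95% interval 0.35 to 1.12, adjusted p = 0.021), with a call lost under 11 of 32 alternatives. The other two were Sult1a1 and the hypoxia-related factor Hif3a. The Hif3a probe used is listed as Ipas, and it passed the filter on dim probes through its dexamethasone arrays alone, so its call is given as a description. No vehicle array was above background, and with vehicle raised to it Hif3a was at least 27.1-fold higher late and at least 11.8-fold higher early. Its mean in dexamethasone cultures was 1.20 higher late than early. Further probes listed as Hif3a, both dimmer, gave differences of -0.05 and 0.14, and with the mean over probes the call ended (0.39). Per1 had a late response of 1.77 and an early response of 2.51 (difference -0.73, adjusted p = 0.069). The letters of the canonical palindromic element of the receptor, searched on both strands with some positions free, stood in the windows of 2.76% of the genes with a promoter that rose early (15 of 543), of 3.57% of early rise genes (3 of 84), of 2.14% of late rise genes (4 of 187), of 0.466% of all tested genes and of 0.537% of all genes, or 0.475% of windows. Nr3c1, the receptor gene, was near background, with all its dexamethasone arrays of 6 h below it, and its difference of -0.44 (SE 0.20, 95% interval -0.87 to -0.01, adjusted p = 0.3) did not pass. Of 12 tested genes for receptors, chaperones and steroid conversion, 0 were called for this difference (limma adjusted p under 0.05) and 2 had an unadjusted p under 0.05, and Stip1 had the largest value (-0.48, adjusted p = 0.28). With 5.66% of all tested genes called in either direction, nothing is read from 0 calls in so short a list.

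Other transcripts responded to a like extent early and late. With both responses called with the same sign and the 95% interval of the difference within 1.5-fold either way, 198 genes counted as a sustained rise and 185 as a sustained fall. Fam107a, which encodes an actin-binding protein, had the largest sustained rise. In dexamethasone cultures Fam107a stood at 13.26, 13.08 and 12.96 at 4 h and at 13.26 and 13.46 at 6 h, against 8.65, 8.53 and 8.20 and then 8.35 and 8.05 in vehicle cultures of the same times. By 18 h Fam107a stood at 13.86 and 13.88 with dexamethasone, against 8.90 and 9.22 with vehicle, and by 24 h at 13.50 and 13.55, against 8.93 and 8.88. The response was 4.71 late and 4.90 early, and the 95% interval of the difference ran from -0.54 to 0.17. Pdk4, which restrains pyruvate oxidation (difference -0.21, interval -0.57 to 0.16), and Tsc22d3, the anti-inflammatory leucine zipper protein GILZ (-0.02, interval -0.33 to 0.30), were alike in this. Tsc22d3 read 13.88, 13.52 and 13.56 at 4 h and 13.80 and 13.78 at 6 h in dexamethasone cultures, against 11.10, 10.98 and 10.80 at 4 h and 11.37 and 11.16 at 6 h in vehicle cultures. Late Tsc22d3 values were 12.81 and 12.78 at 18 h and 12.90 and 12.78 at 24 h with dexamethasone, against 10.20 and 10.17 at 18 h and 10.26 and 10.27 at 24 h with vehicle. The late mean minus the early mean of Tsc22d3 was -0.90 with dexamethasone and -0.89 with vehicle. The kinase Mapk4 (2.92 late, 2.82 early), the carbonic anhydrase Car14 (2.32, 2.13), S100a7a (2.25, 2.00) and the receptor-modifying protein Ramp2 (1.95, 2.02) follow. A dimmer Car14 probe gave a late-minus-early difference of -0.60 (SE 0.20, not called), against 0.19 on the probe used. S100a7a was below background in vehicle cultures of 4, 18 and 24 h.

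The largest sustained falls were those of the somatostatin receptor Sstr2 (-1.37 late, -1.29 early), the synaptic organizer Elfn1 (-1.22, -1.34), Igsf9 (-1.19, -1.23), the soluble pattern receptor Ptx3 (-1.07, -1.24) and Sertm1, listed as 6030405A18Rik (-1.19, -1.11). In dexamethasone cultures Sstr2 stood at 9.94, 10.03 and 9.78 at 4 h and at 9.12 and 9.30 at 6 h, against 11.15, 11.32 and 11.03 and then 10.45 and 10.64 in vehicle cultures of the same times. By 18 h Sstr2 stood at 9.44 and 9.29 with dexamethasone, against 10.98 and 10.61 with vehicle, and by 24 h at 9.32 and 9.69, against 10.62 and 11.03. Dexamethasone arrays of Sstr2 lay below vehicle arrays at every time. Elfn1 was below background in the dexamethasone cultures of 18 and 24 h.

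Genes of the early fall had their larger, negative response at 4 and 6 h. Chac1, an enzyme that breaks down glutathione and is switched on by amino acid and protein folding stress, had the largest difference. Chac1 read 8.69, 8.68 and 8.99 at 4 h and 9.83 and 9.74 at 6 h in dexamethasone cultures, against 9.55, 9.47 and 9.22 at 4 h and 11.85 and 11.36 at 6 h in vehicle cultures. Late Chac1 values were 10.22 and 10.06 at 18 h and 10.04 and 9.87 at 24 h with dexamethasone, against 9.56 and 9.48 at 18 h and 9.35 and 9.29 at 24 h with vehicle. Dexamethasone arrays were below every vehicle array at 4 and 6 h and above every one at 18 and 24 h, with a late response of 0.62 and an early response of -1.23, a difference of 1.85 (SE 0.17, 95% interval 1.49 to 2.21, adjusted p = 3.5e-06). The 6 h vehicle arrays were the highest of the 18. Trib3, a pseudokinase of the same stress pathway, had a late response of -0.24 and an early response of -1.47. In dexamethasone cultures Trib3 stood at 5.94, 5.76 and 6.08 at 4 h and at 7.68 and 7.96 at 6 h, against 6.62, 6.68 and 6.74 and then 10.31 and 9.68 in vehicle cultures of the same times. By 18 h Trib3 stood at 6.64 and 6.27 with dexamethasone, against 7.11 and 7.01 with vehicle, and by 24 h at 6.85 and 7.06, against 6.90 and 6.77. It too peaked in the 6 h vehicle arrays, and its difference of 1.23 (SE 0.19, 95% interval 0.84 to 1.62, adjusted p = 0.00044) was 0.52 with 4 h alone as the early time and 0.87 with 18 h alone as the late time, neither called.

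The windows of Chac1 (chr2:119350992-119351291, plus strand) and Trib3 (chr2:152344011-152344310, minus strand) are shown because both hold TGATGNAA, the letters read by heterodimers of C/EBP and ATF proteins, searched on both strands and here in capitals.
Chac1: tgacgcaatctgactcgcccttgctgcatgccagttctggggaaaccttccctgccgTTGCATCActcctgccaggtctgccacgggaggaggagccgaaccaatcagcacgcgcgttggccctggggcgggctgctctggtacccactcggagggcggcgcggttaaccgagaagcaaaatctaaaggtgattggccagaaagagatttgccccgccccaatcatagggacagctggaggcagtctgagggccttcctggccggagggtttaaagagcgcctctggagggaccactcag
Trib3: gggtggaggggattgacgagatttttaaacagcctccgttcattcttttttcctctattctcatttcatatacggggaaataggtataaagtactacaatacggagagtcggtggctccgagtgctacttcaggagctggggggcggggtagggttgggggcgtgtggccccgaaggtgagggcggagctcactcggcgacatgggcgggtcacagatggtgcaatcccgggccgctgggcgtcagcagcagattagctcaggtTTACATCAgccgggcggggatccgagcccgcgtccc

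These letters stand in 5 of 89 early fall genes with a promoter (5.62%), in 2.99% of all tested genes and in 4.51% of all genes, or 3.97% of windows. Of the 23 tested genes of amino acid and protein folding stress, Chac1, Trib3 and Ddit3 (0.76, adjusted p = 0.031) had a higher late response and 20 did not pass, with a median of 0.037. The share higher over all tested genes was 2.21%. Neither Atf4 (0.32) nor Asns (-0.09), both of this pathway, passed. The call of Ddit3 ended under 14 of 32 alternatives.

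Cemip (listed as 6330404C01Rik), a protein that breaks down hyaluronan, was below vehicle early and level with it or above it late. Cemip read 10.37, 10.73 and 10.80 at 4 h and 10.66 and 10.56 at 6 h in dexamethasone cultures, against 11.73, 11.86 and 12.12 at 4 h and 12.11 and 12.05 at 6 h in vehicle cultures. Late Cemip values were 11.64 and 11.75 at 18 h and 12.37 and 12.26 at 24 h with dexamethasone, against 11.70 and 11.80 at 18 h and 11.93 and 11.63 at 24 h with vehicle. Its treatments overlapped at 18 h, and the difference was 1.60 (SE 0.17, 95% interval 1.25 to 1.95, adjusted p = 1e-05). Artn, a neurotrophic ligand of the GDNF family, closed its gap on the vehicle side. In dexamethasone cultures Artn stood at 5.74, 6.00 and 5.77 at 4 h and at 6.47 and 6.72 at 6 h, against 6.84, 7.24 and 7.61 and then 8.38 and 8.30 in vehicle cultures of the same times. By 18 h Artn stood at 6.02 and 5.95 with dexamethasone, against 6.24 and 6.45 with vehicle, and by 24 h at 5.80 and 6.35, against 6.23 and 6.46. The late mean minus the early mean of Artn was -0.19 with dexamethasone and -1.44 with vehicle, and the difference was 1.25 (SE 0.21, 95% interval 0.81 to 1.70, adjusted p = 0.0011), with a second probe at 1.03. Several of its dexamethasone arrays of 4 h and 24 h were not above background. Scx, a transcription factor of tendon cells (1.34, SE 0.21), the transcript 5330423I11Rik (1.32, SE 0.16), Rgs16, an inhibitor of G protein signals (1.32, SE 0.33), and Adrb1, the beta-1 adrenergic receptor (1.26, SE 0.22), make up the rest of the 7 largest. The call of Rgs16 (adjusted p = 0.024) ended under 11 of 32 alternatives. A dimmer Adrb1 probe gave 0.55 and was not called.

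**Figure D3:**
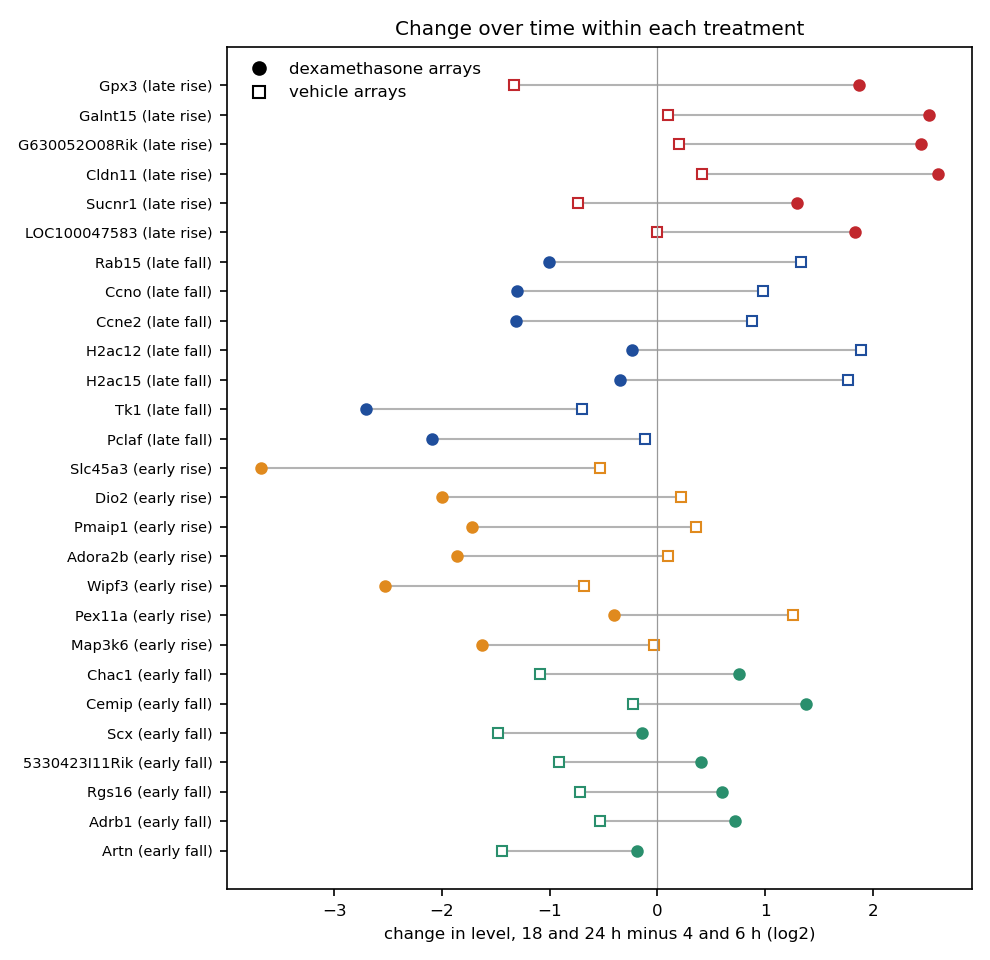
For the genes of each class named by size, the mean log2 level at 18 and 24 h minus that at 4 and 6 h (x axis) within dexamethasone arrays (filled circles) and within vehicle arrays (open squares), joined by a line whose length is the late-minus-early difference. For Pclaf and Slc45a3 the dexamethasone mark lies farther from 0, and for Pex11a, Scx and Artn the vehicle mark does. For H2ac12 the early mean joins a high 4 h and a low 6 h level in both treatments.

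Over whole classes the difference lay more on the dexamethasone side, except in the early fall. The median late minus early level in dexamethasone cultures was -0.842 in the late fall, 0.722 in the late rise, -0.85 in the early rise and 0.344 in the early fall. In vehicle cultures the same medians were 0.106 in the late fall, -0.0751 in the late rise, 0.0196 in the early rise and -0.441 in the early fall.

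Circadian clock genes were called in both directions, and several responses stood at 18 h and not at 24 h. The clock is a loop in which Arntl (Bmal1), with Clock or Npas2, activates the Per, Cry and Nr1d genes, whose products then repress it, and Dbp is an output factor. Of 15 tested clock genes, 6 had a lower late response (Ciart, Per2, Nr1d2, Dbp, Cry2 and Per3), 2 a higher one (Arntl and Npas2) and 7 did not pass, with a median of -0.640. Among all tested genes 3.45% were lower and 2.21% higher. With 24 h alone as the late time, Arntl (1.12) and Per2 (-0.78) kept their calls and the other six lost them. Arntl read 10.47, 10.11 and 10.16 at 4 h and 10.34 and 10.46 at 6 h in dexamethasone cultures, against 10.98, 10.63 and 10.81 at 4 h and 10.97 and 11.05 at 6 h in vehicle cultures. Late Arntl values were 11.58 and 11.50 at 18 h and 10.49 and 10.80 at 24 h with dexamethasone, against 9.89 and 9.89 at 18 h and 10.12 and 10.11 at 24 h with vehicle. Arntl was below vehicle at 4 and 6 h and above it at 18 and 24 h on all arrays, a difference of 1.68 (SE 0.16, 95% interval 1.35 to 2.01, adjusted p = 4.4e-06). Npas2 passed the filter on dim probes only through 3 late dexamethasone arrays, so its call is given as a description. It read 6.83 and 6.68 at 18 h and 6.05 and 5.40 at 24 h with dexamethasone, and no array of the other groups was above background. With values below background raised to it the late-minus-early difference was 0.52.

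Ciart (listed as Gm129), a repressor of the Arntl complex, ran the other way. In dexamethasone cultures Ciart stood at 8.47, 8.37 and 9.53 at 4 h and at 8.92 and 8.93 at 6 h, against 7.13, 7.66 and 7.65 and then 8.71 and 8.51 in vehicle cultures of the same times. By 18 h Ciart stood at 5.56 and 5.74 with dexamethasone, against 7.38 and 7.82 with vehicle, and by 24 h at 7.66 and 7.39, against 7.90 and 7.71. Dexamethasone arrays were above vehicle at 4 and 6 h and below at 18 and 24 h, with fitted single-time responses of 1.31, 0.31, -1.95 and -0.28. The difference was -1.93 (SE 0.28, 95% interval -2.52 to -1.34, adjusted p = 0.00028), and 2 further probes gave -1.59 and -1.39. The 18 h dexamethasone arrays were below background, and with them raised to it the 18 h response was -1.77 and the difference -1.84. With 24 h alone as the late time the difference was -1.09 and was not called (adjusted p = 0.10). Per2, with a late response of -0.44 and an early response of 0.69 (difference -1.13, SE 0.16, 95% interval -1.48 to -0.79, adjusted p = 0.00029), went the same way, and so did Cry2 (-0.83, SE 0.22), whose call ended under 15 of 32 alternatives, while Per3 was lower at all times (-0.64, SE 0.15), with a call that ended under 4 of 32 alternatives.

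Nr1d2 and Dbp were the 2 genes whose response differed between 24 h and 18 h, of 18306 tested (0.0109% higher at 24 h, 0 lower, and 675 genes in either direction at an unadjusted p under 0.05). Nr1d2 read 9.84, 9.88 and 9.64 at 4 h and 9.63 and 9.51 at 6 h in dexamethasone cultures, against 9.94, 9.76 and 9.57 at 4 h and 9.44 and 9.93 at 6 h in vehicle cultures. Late Nr1d2 values were 8.42 and 8.15 at 18 h and 10.53 and 10.39 at 24 h with dexamethasone, against 10.53 and 10.79 at 18 h and 10.39 and 10.47 at 24 h with vehicle. Nr1d2, which encodes a heme-binding repressor of Arntl, had a response of -2.37 at 18 h and of 0.03 at 24 h, so that 24 h minus 18 h was 2.40 (adjusted p = 0.00036). In dexamethasone cultures Dbp stood at 10.81, 11.09 and 11.06 at 4 h and at 10.53 and 10.62 at 6 h, against 12.07, 12.22 and 12.09 and then 11.62 and 11.77 in vehicle cultures of the same times. By 18 h Dbp stood at 9.37 and 9.17 with dexamethasone, against 12.50 and 12.43 with vehicle, and by 24 h at 11.46 and 11.25, against 12.06 and 12.22. For Dbp the responses were -3.19 at 18 h and -0.79 at 24 h, and 24 h minus 18 h was 2.41 (adjusted p = 4e-05). Their late-minus-early differences of -1.13 and -0.86 thus rest on 18 h: with 24 h alone as the late time they were 0.074 and 0.35, neither called, and the clock median was 0.0911. Between 6 h and 4 h, 2 genes differed (0.0109% lower, 0 higher, and 509 in either direction at an unadjusted p under 0.05): the folate enzyme Mthfd2 (6 h minus 4 h, -1.25, adjusted p = 0.031) and the transcription factor Zbtb16 (-1.98, adjusted p = 0.013).

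**Figure D4:**
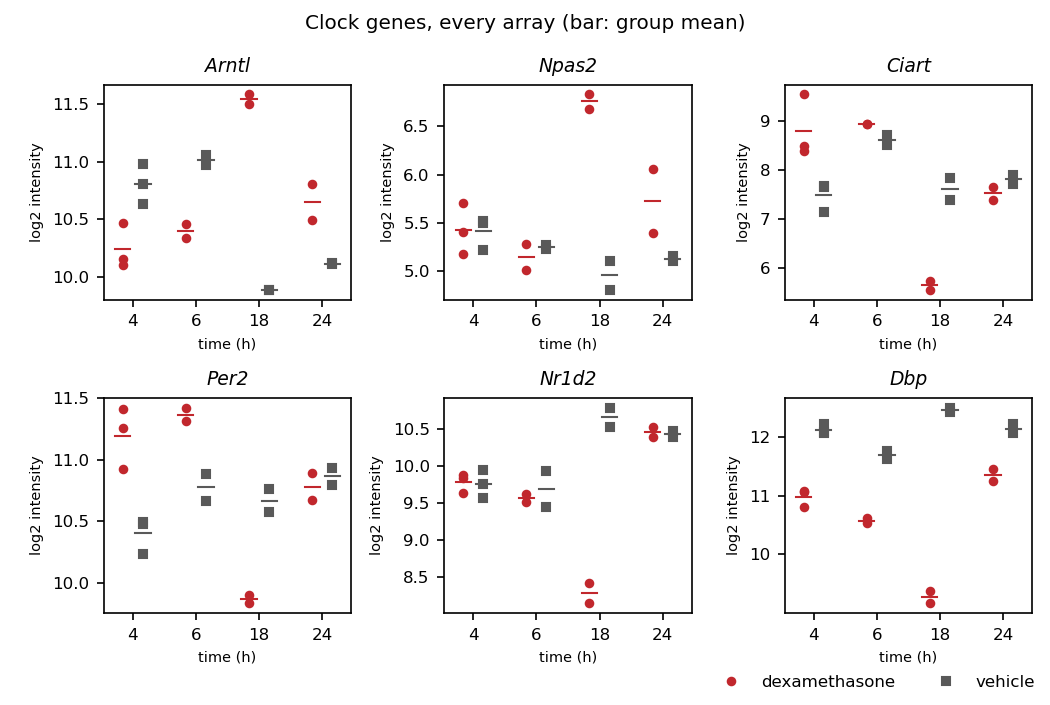
Log2 intensity (y axis) of 6 clock genes on every array at 4, 6, 18 and 24 h (x axis, evenly spaced), dexamethasone as red circles and vehicle as grey squares, with a bar at each group mean. At 18 h dexamethasone is above vehicle for Arntl and Npas2 and below it for Ciart, Per2, Nr1d2 and Dbp; at 24 h the gaps are smaller, and those of Nr1d2 and Per2 have closed.

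The Ciart window (chr3:95882179-95882478, minus strand) is shown because it holds 3 copies of the E-box CACGTG, the letters bound by the Arntl complex, in capitals. The sequence reads the same on both strands.
Ciart: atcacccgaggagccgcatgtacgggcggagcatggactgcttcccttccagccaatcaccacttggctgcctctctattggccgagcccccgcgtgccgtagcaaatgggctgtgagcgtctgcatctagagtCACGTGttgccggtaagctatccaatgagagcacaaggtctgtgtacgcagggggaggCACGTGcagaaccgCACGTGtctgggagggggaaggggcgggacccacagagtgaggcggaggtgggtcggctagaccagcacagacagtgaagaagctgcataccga

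CACGTG was found in 11.1% of all tested genes with a RefSeq promoter, in 8.09% of all genes with one and in 7.15% of windows. Ciart is not typical of the called clock genes in this: the windows of Per3, Cry2, Arntl, Npas2, Nr1d2 and Dbp held no CACGTG. No promoter window was matched to Per2, the remaining called clock gene. A window of Per1, which was not called, held 1.

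Other gene groups had fewer calls, and for these and the lists that follow the shares over all tested genes were 2.21% higher and 3.45% lower. Of 16 tested immediate early genes, 4 had a higher late response (Maff, Ier3, Klf4 and Egr1) and 1 a lower one (Egr2), with a median of 0.38. Maff, a small basic leucine zipper factor, had a late response of 1.33 and an early response of 0.01 (difference 1.32, SE 0.20, 95% interval 0.90 to 1.74, adjusted p = 0.00039), and Ier3, a regulator of cell survival, a late response of 0.30 and an early response of -0.90 (difference 1.20, SE 0.17, 95% interval 0.84 to 1.55, adjusted p = 0.00022). Egr2 had a late response of 0.77 and an early response of 2.07 (difference -1.31, SE 0.17, 95% interval -1.66 to -0.96, adjusted p = 9e-05), a call that ended with all 36 arrays. The calls of Egr1 and Klf4 ended under 10 and 5 of 32 alternatives, and 2 dimmer Klf4 probes gave 0.30 and 0.28. Of 15 feedback inhibitors of receptor tyrosine kinase and MAP kinase signals, Dusp4 (1.21, SE 0.16), Phlda1 (1.20, SE 0.23), Dusp6 (0.70) and Lrig1 (0.58) had higher late responses and Errfi1 a lower one, with a median of 0.286. The call of Lrig1 ended under 13 of 32 alternatives. Phlda1 read 8.13, 8.31 and 7.50 at 4 h and 8.20 and 8.12 at 6 h in dexamethasone cultures, against 10.28, 10.22 and 9.89 at 4 h and 10.45 and 10.35 at 6 h in vehicle cultures. Late Phlda1 values were 8.45 and 8.62 at 18 h and 8.47 and 9.10 at 24 h with dexamethasone, against 9.66 and 9.62 at 18 h and 9.82 and 9.51 at 24 h with vehicle. Phlda1 stayed below vehicle at every time, with a late response of -0.99 and an early response of -2.19.

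Of 36 tested growth factors and their binding proteins, 7 had a higher late response (Artn, Pdgfb, Bmp4, Igfbp3, Hbegf, Bdnf and Gas6) and 3 a lower one (Fgf1, Igf1 and Igfbp4), with a median of 0.192. Bmp4, a morphogen that promotes astrocyte fate, changed sign, with a late response of 0.48 and an early response of -0.54 (difference 1.01, SE 0.20, 95% interval 0.60 to 1.43, adjusted p = 0.0036). Bdnf, a neurotrophin, had a late response of -0.26 and an early response of -0.95 (difference 0.69, SE 0.14, 95% interval 0.39 to 0.99, adjusted p = 0.0054), and the platelet-derived growth factor gene Pdgfb a late response of 0.24 and an early response of -0.80 (difference 1.04, SE 0.22, 95% interval 0.57 to 1.51, adjusted p = 0.0077). The calls of Bmp4, Bdnf and Pdgfb ended with 18 h alone as the late time and with all 36 arrays, and those of Bdnf and Pdgfb with 6 h alone as the early time. Dimmer probes gave 0.05 and 0.32 for Bdnf and 0.30 for Pdgfb. The Bdnf call also ended with the mean over probes, and the Pdgfb call with 24 h alone as the late time. The calls of Igf1, Fgf1 and Igfbp4 ended under 19, 7 and 5 of 32 alternatives, and those of Gas6, Hbegf and Igfbp3 under 4, 2 and 1, while that of Artn held under all 32.

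Among 24 astrocyte markers, 4 had a higher late response (Cbs, Slc1a2, Aldoc and Ndrg2) and 2 a lower one (Gjb6 and Gja1), with a median of 0.126. The glutamate transporter Slc1a2 rose late and was not called early (adjusted p = 0.32). In dexamethasone cultures Slc1a2 stood at 8.08, 8.26 and 8.57 at 4 h and at 8.67 and 8.66 at 6 h, against 7.91, 8.27 and 8.26 and then 8.30 and 8.50 in vehicle cultures of the same times. By 18 h Slc1a2 stood at 9.49 and 9.50 with dexamethasone, against 8.72 and 8.68 with vehicle, and by 24 h at 9.69 and 9.62, against 8.52 and 8.40. Its treatments overlapped at 4 h and at no later time, and it had a late response of 0.99 and an early response of 0.21 (difference 0.78, SE 0.16, 95% interval 0.44 to 1.13, adjusted p = 0.0059). Aldolase C (Aldoc), with a late response of 1.51 and an early response of 0.77 (difference 0.75, SE 0.15, 95% interval 0.44 to 1.05, adjusted p = 0.0037), and the hydrogen sulfide enzyme Cbs, with a late response of 2.37 and an early response of 1.25 (difference 1.12, SE 0.24, 95% interval 0.61 to 1.64, adjusted p = 0.0082), had both risen early. The calls of Slc1a2, Aldoc and Cbs ended with 6 h alone as the early time. Connexin 43 (Gja1, -0.49, adjusted p = 0.042) lost its call under 20 of 32 alternatives and Ndrg2 (0.68) under 15. Of 23 tested reactive astrocyte genes, Hspb1, Serpina3n (0.84, SE 0.18) and Clcf1 (0.71) were higher late, Sphk1 (-0.92) was lower and 19 did not pass, with a median of 0.176. The calls of Clcf1 and Sphk1 ended under 19 and 17 of 32 alternatives. A dimmer Sphk1 probe had the opposite sign (0.18) and was not called. Of 19 genes of junctions and transport, Cldn11, Gjb2 (1.00) and F11r (0.56) were higher and Cldn1, Gjb6 and Gja1 lower, with that of F11r lost under 16 of 32. The claudin Cldn1 had a late response of 0.56 and an early response of 1.89 (difference -1.32, SE 0.15, 95% interval -1.64 to -1.01, adjusted p = 2.6e-05).

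Few inflammatory genes were called for this difference. Of 17 tested cytokines and chemokines, the adhesion molecule Vcam1 (difference -0.75, SE 0.15, 95% interval -1.06 to -0.44, adjusted p = 0.0041) was lower late and 16 did not pass, a share close to that of all genes. Dimmer Vcam1 probes gave -0.01 and -0.11, and the call of Vcam1 ended with the mean over probes and with 6 h alone as the early time. Of these 17, 9 were lower with dexamethasone late and 10 early, where 9.08% of all tested genes were lower late and 4.95% early. Of 14 NF-kappaB feedback and mRNA decay genes 0 were called (limma adjusted p under 0.05) and 3 had an unadjusted p under 0.05, the largest value being that of Relb (difference 0.65, SE 0.19, 95% interval 0.24 to 1.06, adjusted p = 0.062). Of 22 interferon-stimulated genes, the antiviral enzyme Rsad2 (0.91, SE 0.19) was higher late, with a late response of -0.10 and an early response of -1.01, and 21 did not pass. Of 11 complement and antigen presentation genes, the complement inhibitor Serping1 (0.93, SE 0.21) was higher late and 10 did not pass. With 2.21% of all tested genes higher, nothing is read from 1 call in either list. The call of Rsad2 ended with 24 h alone as the late time and with all 36 arrays. That of Serping1 ended with 18 h alone as the late time and with 6 h alone as the early time.

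Of 21 tested cholesterol genes, the synthesis enzymes Sqle (0.49), Msmo1 (listed as Sc4mol, 0.55) and Cyp51 (0.58) had higher late responses, Ch25h a lower one and 17 did not pass, with a median of 0.353. The calls of Sqle and Msmo1 ended under 22 and 16 of 32 alternatives. Ch25h read 6.62, 6.71 and 6.14 at 4 h and 6.06 and 6.62 at 6 h in dexamethasone cultures, against 8.99, 9.46 and 8.43 at 4 h and 9.05 and 9.17 at 6 h in vehicle cultures. Late Ch25h values were 6.94 and 7.03 at 18 h and 7.12 and 7.42 at 24 h with dexamethasone, against 10.77 and 10.74 at 18 h and 10.60 and 10.93 at 24 h with vehicle. Ch25h, which makes 25-hydroxycholesterol, was lower with dexamethasone at every time, with a late response of -3.63 and an early response of -2.62. The dexamethasone mean was 0.71 higher late than early and the vehicle mean 1.72 higher (difference -1.01, SE 0.26, 95% interval -1.56 to -0.47, adjusted p = 0.025), and the call ended under 13 of 32 alternatives. Among genes of fatty acids and lipid droplets, Fabp5 (1.01) and Acsl3 (0.59) had higher late responses and Plin4 a lower one. Among 15 genes of amino acid breakdown, Folh1, Cbs and proline dehydrogenase Prodh (0.88) were higher, the calls of Acsl3 and Prodh ending under 12 and 14 of 32 alternatives. In several lists the calls were few, over all genes 2.21% being higher and 3.45% lower: 1 of 32 matrix genes (Col18a1, -0.83) was lower, 1 of 12 heat shock genes (Hspb1) and 1 of 20 genes of glucose and glutamate (Slc1a2) were higher, so that nothing is read from these counts. Likewise, 2 of 13 C/EBP and Kruppel-like factors (Klf4, 0.78, and Klf7, 0.61, lost under 19 of 32 alternatives) were higher. Other Klf7 probes of similar brightness gave 0.29 and 0.41, neither called.

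**Figure D5:**
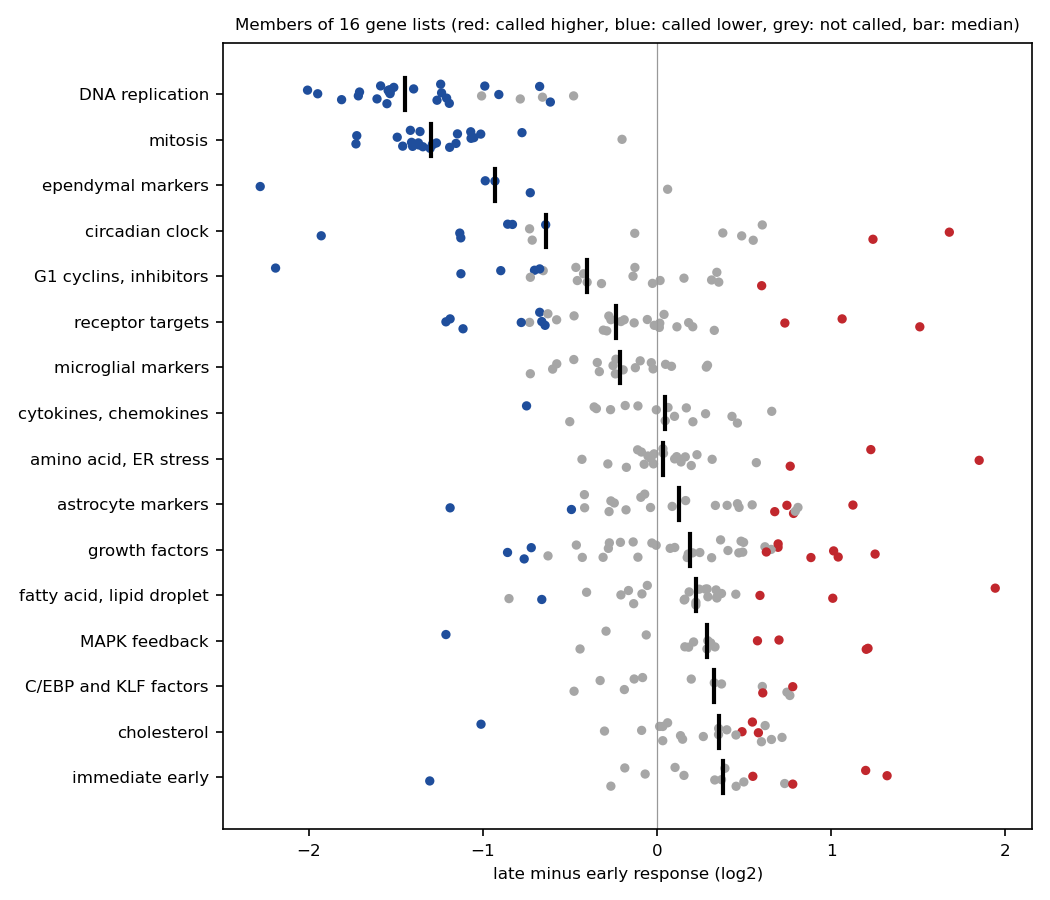
Late-minus-early difference (log2, x axis) of the tested members of 16 gene lists (rows), red where called higher, blue where called lower and grey where not called, with a black bar at each list's median. The replication and mitosis members lie almost wholly below 0, and the bars of most other lists lie within 0.4 of 0.

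Among the marker lists of other cell types, only the ependymal one had most of its members called. Of 5 tested ependymal markers, Ccno, Pifo (listed as 1700027A23Rik, -0.99, SE 0.26), the dynein gene Dnah11 (listed as Dnahc11, -0.93, SE 0.17) and Rsph1 (-0.73, SE 0.17), all of cilia or their assembly, had lower late responses, and the ciliogenesis factor Foxj1 (0.06) was not called. The calls of Pifo and Rsph1 ended under 17 and 8 of 32 alternatives. The 5 markers, Ccno included, averaged 8.50 to 9.01 on late and 9.20 to 9.51 on early dexamethasone arrays. On vehicle arrays they averaged 9.64 to 9.90 late and 9.29 to 9.75 early. The median difference of the 5 was -0.931. Of 18 microglial markers 0 were called for this difference (limma adjusted p under 0.05) and 2 had an unadjusted p under 0.05, with a median of -0.215 and Aif1 the farthest from 0 (-0.73, adjusted p = 0.073). Their mean level was 8.64 to 8.82 on late and 7.69 to 8.43 on early dexamethasone arrays, and 8.72 to 9.09 on late and 7.69 to 8.44 on early vehicle arrays, so it was higher late in both treatments. Of 9 fibroblast and meningeal markers, Ptgds (1.23, SE 0.19) and Ogn (0.55) were higher late, and of 9 endothelial markers Flt1 (0.71), where 2.21% of all tested genes were higher. Of 8 neuronal markers 0 were called (limma adjusted p under 0.05), with 1 at an unadjusted p under 0.05 and a median of 0.107. The neuronal marker farthest from 0 was Gad2 (0.38). The calls of Ogn and Flt1 ended under 18 and 14 of 32 alternatives. The part of other cells in the results above was not tested.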

How the data were processed

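RNA of 36 astrocyte samples was measured on Illumina arrays, read with GenomeStudio per the submitters' processing notes. The deposited values are linear intensities of 45281 probes that the authors had normalized between arrays: sorted values agreed to within 0.4 apart from the 10 lowest. A second table has 72 columns of values whose names match no sample label, and only its probe symbols were used. Intensities were background-corrected (normexp, offset 16) and put on the log2 scale. Probes above a background level of 91.7 (99th percentile of the background) on at least 2 of 18 arrays were kept (27740), and the brightest probe stood for each of 18306 genes, of which 4191 symbols had no RefSeq match and kept their listed name. One limma model (3.58.1, R 4.3.3) with 8 group means gave every contrast, with 0.5 weight per time in each mean, Benjamini-Hochberg adjusted over all genes. Alternatives covered background, probe choice, weights, single times, replicate blocks and each array left out. Scripts were tested on simulated data.

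Named genes were, in each class, the 7 with the largest difference among those whose late single-time responses both lay on one side of both early ones, then the 7 largest sustained rises and 5 largest sustained falls by mean response, the called members of each list (or the member farthest from 0), and Nr3c1, Fkbp5, Tsc22d3, Per1 and Sgk1. Atf4, Asns, Foxj1, Mthfd2 and Zbtb16 were named after their values were seen. One gene that this rule names is not reported here. The members and lists were chosen with earlier results of these data known. Promoters were matched by symbol to RefSeq (GRCm38.p6).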

Additional observations from a re-analysis of the deposited data

Results flagged for a closer look

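The response to dexamethasone differed between the late and early times in 405 genes with a higher and 632 with a lower late response, by limma's test of the difference itself at an adjusted p under 0.05. Among the genes named by size, those of the late rise were Gpx3 (3.20), Galnt15 (2.42), G630052O08Rik (2.25), Cldn11 (2.19), Sucnr1 (2.03) and LOC100047583 (1.83), all as late minus early log2 differences. Those of the late fall were Rab15 (-2.35), Ccno (-2.28), Ccne2 (-2.19), H2ac12 (-2.12), H2ac15 (-2.12), Tk1 (-2.01) and Pclaf (-1.97). Those of the early rise were Slc45a3 (-3.15), Dio2 (-2.22), Pmaip1 (-2.08), Adora2b (-1.96), Wipf3 (-1.84), Pex11a (-1.66) and Map3k6 (-1.59), and those of the early fall were Chac1 (1.85), Cemip (1.60), Scx (1.34), 5330423I11Rik (1.32), Rgs16 (1.32), Adrb1 (1.26) and Artn (1.25). Within the late times, the response at 24 h exceeded that at 18 h in Dbp by 2.41 and in Nr1d2 by 2.40. Within the early times, 6 h minus 4 h was -1.25 in Mthfd2 and -1.98 in Zbtb16. No group has the 4 arrays that a test for single outlying arrays needs.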

How the results depend on the processing

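Leaving out each array in turn gave 235 to 551 genes with a higher and 481 to 777 with a lower late response, 618 to 922 and 567 to 1080 for the early response, 974 to 1581 and 1183 to 1926 for the late response, 2 to 3 and 0 to 3 for 24 h minus 18 h, 0 to 1 and 0 to 2 for 6 h minus 4 h, and 33 to 58 and 62 to 83 over the gene lists. The count of higher late responses was 235 without dexamethasone 6 h replicate 1, 250 and 245 without dexamethasone 18 h replicates 1 and 2, 260 without vehicle 6 h replicate 1 and 263 without vehicle 18 h replicate 1, against 405 with all arrays, and early lower calls were 567 without dexamethasone 6 h replicate 1, against 906. With 18 h alone as the late time, the late minus early counts were 121 higher and 326 lower, the late response 616 and 827, and the lists 20 and 49. With 24 h alone, 264 were higher, the late response had 819 and 873, and Nr1d2 (0.074) and Dbp (0.35) changed sign. With 4 h alone the early response had 519 and 457. With 6 h alone it had 468 and 325, the late minus early counts were 139 and 356, and 27 list members were higher. Fitting all 36 arrays gave 119 and 331 late minus early, 538 and 465 early, 776 and 950 late, 1 higher for 24 h minus 18 h, 0 lower for 6 h minus 4 h (limma) and 22 list members higher. Array weights gave 1450 lower early and 1 higher for 6 h minus 4 h. For the 2 within-arm differences, keeping dim probes left 1 lower for 6 h minus 4 h, the mean over probes gave 1 higher for each, and raising values to background gave 6 lower for 24 h minus 18 h and 8 higher and 5 lower for 6 h minus 4 h. The causes were not tested. Of 147 called named genes, the calls kept were 91 with 18 h alone, 109 with 24 h alone, 126 with 4 h alone, 99 with 6 h alone, 98 with all 36 arrays and 120 to 147 with an array left out; 84 of 165 named genes had one call under all 32 alternatives.

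Deviations of same-numbered arrays correlated at 0.372 to 0.593 at 4 h, where all 6 arrays lay nearest to their own number, but at 0.037 at 6 h, -0.0484 at 18 h and -0.142 at 24 h. The labels give the numbers no meaning, so they were not taken to pair the samples over all times. The replicate block gave 551 higher and 804 lower late minus early, 1058 and 1224 early, 1638 and 2016 late, and 60 and 82 in the lists. Under it Per1 (-0.73), Relb (0.65) and Aif1 (-0.73), not called in the model without blocks, were called, and Gja1 and Sqle lost their calls. Per1, Relb and Aif1 were also called without dexamethasone 4 h replicate 3, so these calls are not particular to the block. With the numbers at 24 h crossed, a choice made after seeing the data, the block gave 650 and 894, and 76 list members higher.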
